A study of Mus musculus with 4 samples.

Results

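The Gata family loci are the genomic intervals around 4 genes for zinc-finger transcription factors: Gata6, Gata3, Gata2 and Gata4. Members were the listed Gata6 ChIP-seq peaks whose midpoint lay inside an interval set by position alone, about 0.2 Mb on either side of each gene on mouse build mm9. The intervals ran from 10.85 to 11.29 Mb of chromosome 18 for Gata6, from 9.57 to 10.0 Mb of chromosome 2 for Gata3, from 87.94 to 88.35 Mb of chromosome 6 for Gata2 and from 63.61 to 64.1 Mb of chromosome 14 for Gata4. They held 19 listed peaks, and the other 12118 peaks of the list lay elsewhere. The peaks came from primary keratinocytes of mouse dorsal skin, on a C57BL6/CBA background, with the K14deltaNLef1 transgene. In this transgene a keratin 14 promoter drives a truncated form of Lef1 in basal epidermal cells. All libraries were made from these keratinocytes, infected with a lentivirus that overexpresses Gata6 and grown on irradiated 3T3-J2 mouse fibroblasts. The libraries were 2 Gata6 immunoprecipitates, each with another antibody, 1 Flag immunoprecipitate as negative control and 1 input, with no library from uninfected cells. The deposited result is a single overlap list without values per library, so read depth is unknown, no peak has a replicate error and none of the differences below carries a test. Feeder chromatin and keratinocyte chromatin, or viral and endogenous Gata6 protein, cannot be told apart in it.

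GATA factors bind DNA words with the core that gives them their name. Gata2 and Gata3 are best known from blood cells, where Gata2 acts in stem and progenitor cells and Gata3 in T cells, and Gata3 also acts in the epidermis and hair follicle. Gata4 and Gata6 act in the heart and in tissues of endodermal origin, and Gata6 also marks cells of the upper hair follicle and sebaceous duct. In blood and endoderm, GATA factors bind regulatory elements of their own and of each other's genes, and such elements can lie far from the promoter. Peaks near Gata6 thus bear on binding of Gata6 protein, viral or endogenous, around its own gene. Peaks near the other 3 genes bear on its binding around its relatives.

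The promoters of Gata2 and Gata3 are shown, the 2 of the 4 genes for which promoter sequences were at hand. These were also the 2 genes with a peak within 100 kb. The promoters are RefSeq sequences on build GRCm38.p6, which is not the build of the peaks, so no peak was placed on them. Each covers 250 bases before and 50 bases after a transcript start, 5′ to 3′ on the strand of the gene. Capitals mark any of the words AGATAA or AGATAG or TGATAA or TGATAG, searched on both strands.
Gata2, first start (chr6:88193641-88193940, plus strand): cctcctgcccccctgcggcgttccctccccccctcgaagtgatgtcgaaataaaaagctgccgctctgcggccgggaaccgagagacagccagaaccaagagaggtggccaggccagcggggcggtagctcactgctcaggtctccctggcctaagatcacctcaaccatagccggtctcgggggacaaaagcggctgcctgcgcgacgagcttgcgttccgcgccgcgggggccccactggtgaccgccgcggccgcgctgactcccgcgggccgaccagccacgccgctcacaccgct
Gata2, second start (chr6:88198414-88198713, plus strand): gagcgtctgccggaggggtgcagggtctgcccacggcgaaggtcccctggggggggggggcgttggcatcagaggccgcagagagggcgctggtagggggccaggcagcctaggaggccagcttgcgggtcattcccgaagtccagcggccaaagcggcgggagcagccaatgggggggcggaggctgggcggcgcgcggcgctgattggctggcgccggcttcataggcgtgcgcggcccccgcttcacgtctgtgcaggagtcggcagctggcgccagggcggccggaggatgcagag
Gata3 (chr2:9878551-9878850, minus strand): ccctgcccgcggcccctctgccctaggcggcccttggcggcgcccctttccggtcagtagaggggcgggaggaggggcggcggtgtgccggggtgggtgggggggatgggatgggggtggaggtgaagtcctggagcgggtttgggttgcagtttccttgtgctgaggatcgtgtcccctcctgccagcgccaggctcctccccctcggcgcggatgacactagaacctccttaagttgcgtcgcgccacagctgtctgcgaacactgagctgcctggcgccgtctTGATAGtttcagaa
Neither Gata2 promoter held such a word, and the Gata3 promoter held 1, TGATAG, in the part after the transcript start, so no matches overlapped. Of 32851 promoters of this length, 29.8% held at least 1 of the words. All 3 were rich in G and C, with 69.3%, 73.7% and 67.3% in the order printed, against a median of 52.7% over all promoters. A word is a match of letters and not a measured site. The promoter table had entries for these 2 of the 4 genes, and not for Gata4 or Gata6.

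The 4 genes differed widely in how many peaks surrounded them. The Gata2 interval held 9 peaks, the Gata3 interval 5, the Gata4 interval 3 and the Gata6 interval 2. Per Mb these were 22.0 peaks for Gata2, 11.6 for Gata3, 6.12 for Gata4 and 4.55 for Gata6, against a mean of about 4.75 over windows of the same width along all 20 listed chromosomes. The ratio to that mean was 4.62 for Gata2 (exact Poisson 95% interval 2.11 to 8.77), 2.45 for Gata3 (0.796 to 5.72), 1.29 for Gata4 (0.266 to 3.77) and 0.958 for Gata6 (0.116 to 3.46). These intervals cover counting error only. They treat peaks as independent, although the windows vary more than that, with 47.0% of those as wide as the Gata2 interval empty, so they are too narrow and are no test. The intervals of all 4 genes overlapped. With windows of the gene's own chromosome the Gata4 ratio was 2.32, and within 100 kb of the gene the Gata3 ratio was 0.956.

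**Figure D1:**
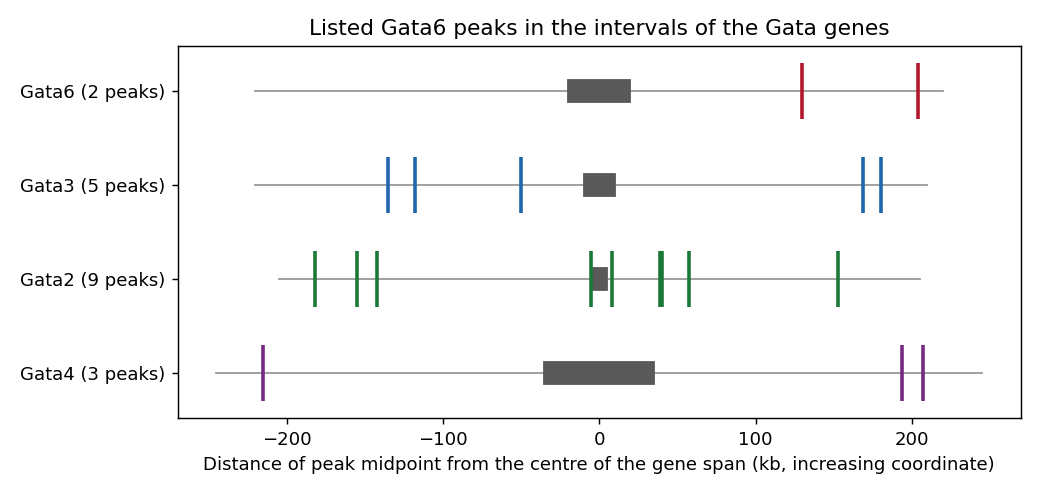
Listed Gata6 peaks (vertical lines) in the interval of each gene (horizontal line). Their position is the distance in kb of the peak midpoint from the centre of the gene span (grey box, approximate and given to 10 kb). The 9 peaks around Gata2 include 1 close to each edge of its box, which need not be the edges of the gene. The boxes of Gata6 and Gata4 have no peak within 100 kb.

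Windows of the same width give the background for these counts. At least 9 peaks were found in 3.89% of the 6200 windows as wide as the Gata2 interval, at least 5 in 16.8% of the windows for Gata3, at least 3 in 33.0% for Gata4 and at least 2 in 39.6% for Gata6. Between 43.1% and 47.0% of windows held no peak, and the fullest held 21 or 22. The counts at Gata4 and Gata6 were therefore common ones, the count at Gata3 was less so, and Gata2 stood nearest to the top. Among windows of its own chromosome, which is rich in peaks, 6.82% reached the count of Gata2, and among those of the chromosome of Gata4, which is poor in peaks, 21.1% reached 3. All 19 peaks together were 2.26 times the sum of the 4 window means, 8.40, and the 10 peaks outside the Gata2 interval were 1.55 times theirs.

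**Figure D2:**
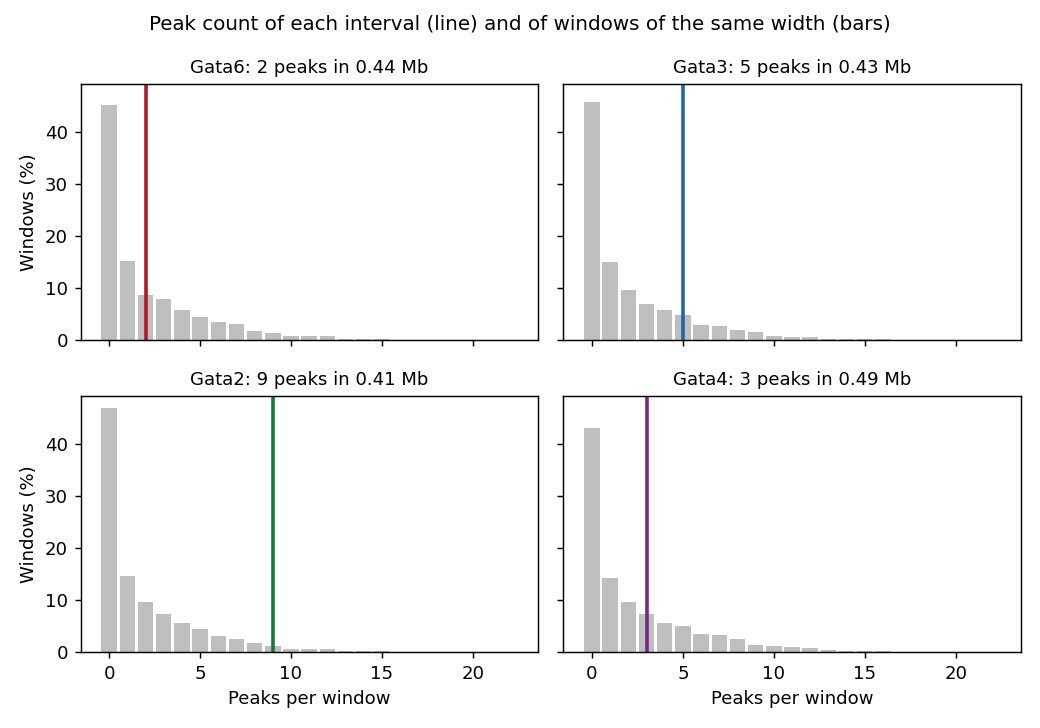
Share of windows (bars, in %) by the number of listed peaks they hold, for windows as wide as the interval of each gene, with the count of the interval itself as a coloured line. The line of Gata2, at 9 peaks, lies in the upper tail, where 3.89% of windows held as many or more. Those of Gata6 and Gata4, at 2 and 3, lie where many windows are.

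The gene of the overexpressed factor itself, Gata6, had no listed peak in its span, which ran from about 11.05 to 11.09 Mb. Its nearest peak, chr18:11200283-11200416, lay 110 kb to the higher-coordinate side. The error is about 5 kb or more, because the gene positions are approximate and rounded to 10 kb. The other peak of the interval, chr18:11274401-11274515, lay 184 kb to the same side. Below the gene the interval was empty, and the next listed peak, chr18:10568623-10568732, was 481 kb from the gene and so outside the interval. Gata6 thus sat in a stretch of 632 kb without a listed peak. Of all gaps between neighbouring listed peaks 7.33% were at least as long, but because long gaps cover much sequence, 59.5% of the sequence between peaks lay in such gaps. A peak within 110 kb was found for 43.4% of spans as wide as Gata6 placed every 10 kb, and 13.4% of those spans held a peak. In GRCm38 gene order the gene's neighbours are Gata6os, a long noncoding RNA on its lower side, and the noncoding Gm35918 on its upper side. The next coding genes are Mib1, an E3 ubiquitin ligase of Notch signalling, below and Rbbp8, a DNA repair factor, above. Both peaks of the interval were on the side of Rbbp8.

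Gata2 was the only one of the 4 genes with peaks close to the edges of its rounded span. Peak chr6:88139735-88139877 lay just below the span of 88.14 to 88.15 Mb, and peak chr6:88153130-88153270 lay 3.20 kb above it. Both distances are smaller than the rounding of the span, so whether either peak lies in the gene, in an intron or in front of a promoter was not tested. Their midpoints were 13.4 kb apart, and Gata2 is 13.1 kb long in GRCm38, so at most 1 of them can lie between its ends if the length is the same in mm9. A window of 20 kb, the span with 5 kb added on each side, held 2 or more peaks in 1.49% of 127297 cases and none in 92.3%. This window was set for Gata2 alone after its 2 peaks had been seen, so the 1.49% is no unbiased background share. A peak within 0.194 kb, as at Gata2, was found for 4.34% of spans of its width, and 4.19% held a peak. That distance is below the rounding of the span, so the 4.34% overstates the precision. Gata2 is known from blood cells for GATA-bound elements in front of its promoter and within an intron, and the 2 peaks were not matched to those elements.

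Further peaks of the Gata2 interval fell into 2 groups. On the higher side, peaks chr6:88184115-88184235 and chr6:88185200-88185362 were 34.2 and 35.3 kb from the gene and 1.11 kb from each other, the closest pair among the members. Another peak stood 52.7 kb and the outermost, chr6:88297473-88297614, 148 kb from the gene on that side. On the lower side, 3 peaks stood apart from the gene, at 137, 150 and 177 kb, the outermost being chr6:87962721-87962857 and the one nearest to the gene chr6:88003243-88003403. Thus 4 of the 9 peaks were within 50 kb of the rounded gene span and 5 within 100 kb. That is 7.65 (exact Poisson 95% interval 2.08 to 19.6) and 5.01 (1.63 to 11.7) times the mean of windows as wide as those regions. As many peaks were found in 3.18% and 5.49% of those windows. The peak at 52.7 kb was nearer to the 50-kb bound than the rounding of the span. The count within 50 kb may thus change with the exact ends of the gene. In GRCm38 gene order the coding neighbours are Rpn1, a subunit of the oligosaccharyltransferase, below, and Dnajb8, a heat shock co-chaperone, and Eefsec, the selenocysteine elongation factor, above. The immediate lower neighbour is the noncoding Gm38856. The distances do not tell which of these genes a peak belongs to.

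The surroundings of Gata2 were dense in peaks as well. Within 1 Mb on each side of its centre there were 29 listed peaks, 3.07 times the window mean of 9.44, and within 4 Mb 119 peaks, 3.20 times the mean. Outside the interval but within 1 Mb the density was 12.6 peaks per Mb, against 22.0 inside it. For Gata6 the density within 1 Mb but outside the interval was 5.13 per Mb and for Gata4 4.64 per Mb, against 4.55 and 6.12 inside. The part of the excess at Gata2 that goes with its peak-rich region was not tested.

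Around Gata3 the picture was the opposite, with 5 peaks in an otherwise empty region. The 3 lower peaks were chr2:9654965-9655115 at 125 kb, chr2:9671853-9672007 at 108 kb and chr2:9739979-9740121 at 40.0 kb from the span of 9.78 to 9.8 Mb. The 2 upper ones were chr2:9958643-9958774 at 159 kb and chr2:9970220-9970381 at 170 kb. No peak lay between 40.0 kb below the gene and 159 kb above it, a gap of 219 kb. Of all gaps 19.6% were at least as long, and these covered 80.6% of the sequence between peaks. A nearest peak within 40.0 kb was found for 25.4% of spans as wide as Gata3. With 1 peak within 50 kb and the same 1 within 100 kb, the ratios to windows of those widths were 1.75 (exact Poisson 95% interval 0.0444 to 9.77) and 0.956 (0.0242 to 5.33). The gene is 30.9 kb long in GRCm38, against 20 kb in the rounded span, so these distances may be smaller by about the difference. The next listed peak below these 5 was 3.48 Mb away and the next above 1.37 Mb away, so in 5.17 Mb the only listed peaks were the members of this interval. Gaps of at least 3.48 Mb made up 0.701% of all gaps and gaps of at least 1.37 Mb made up 3.05%. These are shares of the number of gaps. Long gaps cover much sequence, and the share of sequence in gaps of these lengths was not examined. Within 1 Mb of Gata3 the 5 peaks were 0.530 times the window mean, and no other peak stood there. Groups of peaks between 2 gaps of at least 1.37 Mb were not rare, since there were 349 in the list and 251 of them had 5 or more peaks. The immediate neighbours in GRCm38 gene order are noncoding, Gm13218 below and 4930412O13Rik above. The coding neighbours are Celf2, an RNA-binding protein, below and Taf3, a subunit of the general transcription factor TFIID, above, the side of the 2 upper peaks.

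**Figure D3:**
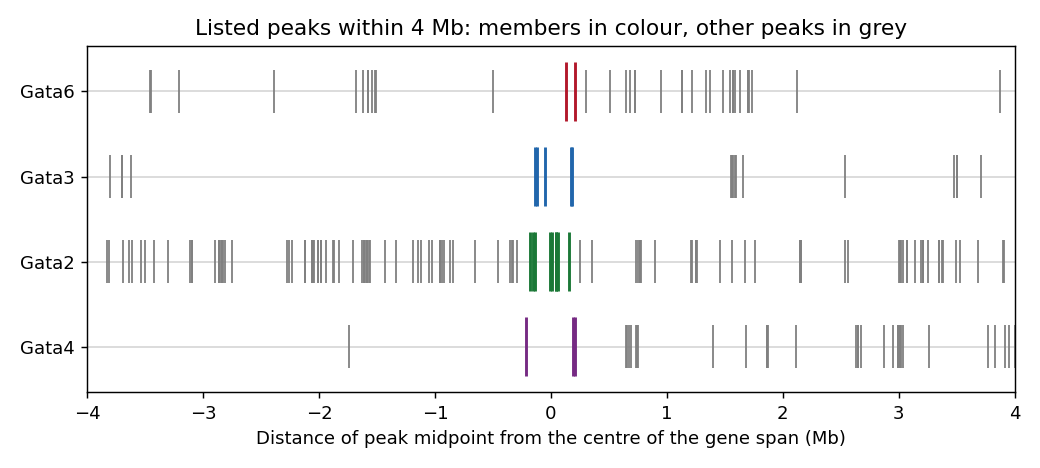
Listed peaks within 4 Mb of the centre of each gene span, by distance in Mb of the peak midpoint, with the members in colour and all other peaks in grey. The 5 peaks of Gata3 stand alone between empty stretches of 3.48 and 1.37 Mb, whereas the 9 peaks of Gata2 stand among 119 peaks.

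Gata4 had no peak close by. Its 3 peaks stood near the ends of the interval: chr14:63640312-63640457 was 180 kb below the span of 63.82 to 63.89 Mb, and chr14:64048708-64048872 and chr14:64062021-64062154 were 159 and 172 kb above it. The gene lay in a gap of 408 kb. Of all gaps 11.2% were as long or longer, and these covered 68.8% of the sequence between peaks. A nearest peak within 159 kb was found for 51.9% of spans as wide as Gata4. Below the lowest member the list was empty for 1.52 Mb. The lower neighbour in GRCm38 gene order is Neil2, a DNA glycosylase of base excision repair. The immediate upper neighbour is Gm4151, and the next coding gene above is Blk, a tyrosine kinase of B cells. With Gata6, Gata4 was thus a gene with 0 peaks within 100 kb, as were 58.4% and 55.9% of the windows as wide as those regions.

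Each deposited peak name joins its chromosome and a whole number. No label or header says what that number ranks, and the score column, 0 in every row, gives no other measure of strength. The number is given below as a percentile among the listed numbers of its chromosome, low values being low numbers. Over the 19 peaks the median percentile was 38.2, against 50.1 for the 12118 other peaks. Of the 19, 14 (73.7%) lay in the lower 50% of the numbers, 6 (31.6%) in the lowest 25% and 2 (10.5%) above the 75th percentile. Among the other peaks these shares were 49.9%, 24.9% and 25.1%. The lower numbers were mostly those of Gata2, where 8 of 9 peaks were in the lower 50%.

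At Gata2 the lowest numbers were 37, 72 and 128, at percentiles 4.02, 7.72 and 13.4. They belonged to the outermost lower peak, to the peak 137 kb below and to the upper peak of the close pair. The 2 peaks close to the edges of the rounded gene span had the numbers 246 and 446, at percentiles 24.9 and 41.1. The other members of this interval ran from percentile 29.9 to 59.1. Thus the peaks nearest to the gene did not have the lowest numbers. At Gata4 the lowest number of all members was found: the peak 172 kb above the gene was number 8 of its chromosome, at percentile 2.66, while its neighbour 13.3 kb away had number 301, at percentile 72.1. The lower Gata4 peak had number 125, at percentile 38.2.

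At Gata6 the nearer peak had number 129, at percentile 25.9, and the farther one number 826, at percentile 91.7. At Gata3 the numbers were, in order of position, 415, 102, 416, 531 and 1399, at percentiles 42.1, 11.1, 42.2, 51.0 and 88.8. The low number 102 belonged to a peak 108 kb below Gata3. The medians were 29.9 for Gata2, 38.2 for Gata4, 42.2 for Gata3 and 58.8 for Gata6, and the ranges of the 4 genes overlapped.

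**Figure D4:**
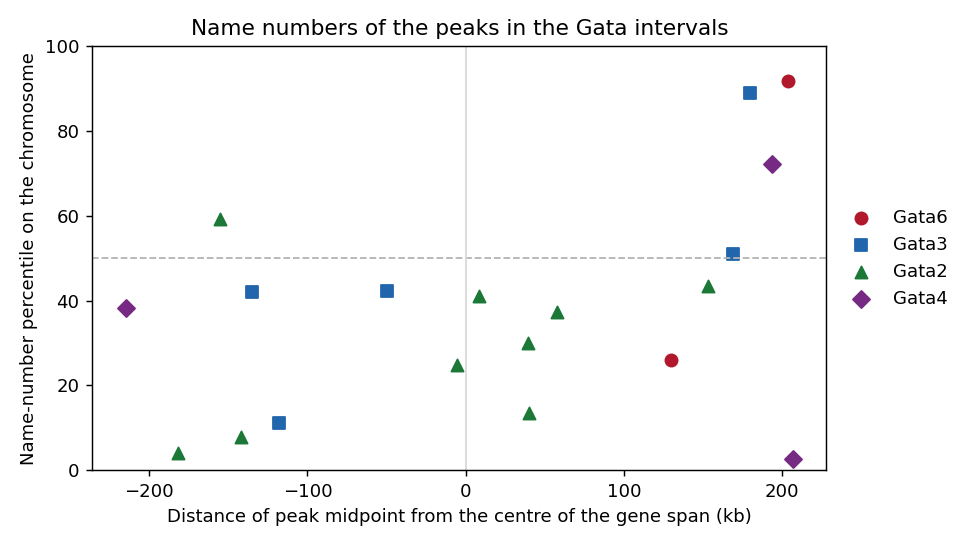
Percentile of the name number of each member among the listed numbers of its chromosome, by distance in kb from the centre of the gene span, with 1 symbol for each gene and a dashed line at 50. Peaks of Gata2 (triangles) lie below the line with 1 exception, and the lowest point of all is the Gata4 peak at percentile 2.66.

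The members were of ordinary width. Their median was 142 bp with a range of 115 to 165 bp, against a median of 143 bp for all other listed peaks. None was 83 bp wide or narrower, a class that held 9.13% of the others. The narrowest was the farther Gata6 peak, 115 bp, and the widest the Gata4 peak 159 kb above the gene, 165 bp. The distance from a member to its nearest listed peak had a median of 13.8 kb, against 18.7 kb for the others. Only the close pair at Gata2, 2 of 19 peaks (10.5%), had a neighbour within 5 kb, against 23.2% of the others.

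The bounds of the intervals decide which peaks are members. The nearest listed peaks outside were 83.6 kb above and 281 kb below the Gata6 interval, 398 kb above the Gata4 interval and over 1 Mb away at Gata3. At Gata2 a peak of name number 667 stood 46.6 kb above the interval and another 91.8 kb below it. The members nearest to a bound were 15.5 kb inside it at Gata6, 22.8 kb at Gata2, 29.7 kb at Gata3 and 30.4 kb at Gata4.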

How the data were processed

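ChIP-seq libraries of Gata6-overexpressing mouse keratinocytes were used as 1 list of 12137 peaks for the whole series. BWA, HOMER and build mm9 are named in the submitters' processing notes, with no role or version. How peaks were called and intersected, and against which control, is not stated in the notes, labels or file. The extraction text in the labels names complexes of truncated Lef1, and the titles and antibody labels, which name Gata6 or Flag, were followed; 1 genotype label with an extra final N was read like the rest. In the list deposited by the authors the score is 0 in every row.

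Positions are given 1-based. Gene spans came from the rule for the intervals, rounded to 10 kb, and gene order, lengths and promoters from RefSeq tables on GRCm38.p6, matched by symbol for 4 of 4 genes in the gene table and 2 of 4 in the promoter table. Background windows were complete, without overlap, and started at the first peak of each chromosome. Distances were compared with spans of the same width placed every 10 kb. Single points in place of spans gave a peak as near for 39.9% (Gata6), 22.0% (Gata3), 0.191% (Gata2) and 47.6% (Gata4). The share for Gata2 rests on a distance of 0.194 kb, far below the 10-kb rounding of its span, so it overstates the precision. With the span widened by 5 kb on each side that distance was 0. Named were the 4 genes, their neighbours in gene order and all peaks of loci with up to 6 peaks, else the 3 nearest, the 3 with lowest numbers and the outermost. The 2 Gata2 peaks outside this rule are given by distance only. Python 3.11.15, NumPy 2.4.6, pandas 2.3.3, SciPy 1.17.1 and matplotlib 3.10.9 were used, and the counting was tested on simulated data. The members and lists were chosen with earlier results of these data known, and the surroundings, gaps beyond the intervals and gene edges were examined after the values were seen.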

Additional observations from a re-analysis of the deposited data

How the results depend on the processing

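No paired analysis was possible because the list has no values per library, and for the same reason no library was left out. Of 54 alternative values, 48 stayed within the Poisson interval of the reported ratio, the SD of the percentiles or 5 kb of the distance. That count is no measure of robustness, because these bounds are wide. The interval for Gata3 ran from 0.796 to 5.72, and the SD for the 2 Gata6 peaks was 46.5 percentile points. Counting any overlap with the interval, or only peaks wider than 83 bp, removed no member. The density ratios of Gata6 and Gata4 both became 0 with the gene span plus 100 kb or plus 50 kb, since no peak lay so near. With the lower 50% of name numbers alone the nearest peak to Gata4 was 172 kb away, not 159 kb. As a percent of the highest number of the chromosome, in place of a rank, all 4 medians were lower. They were 8.98 for Gata2 (29.9 by rank), 17.8 for Gata3 (42.2), 17.2 for Gata4 (38.2) and 39.1 for Gata6 (58.8). The listed numbers skip values, so the 2 scales differ by construction. On the chromosome of Gata2, number 37 had rank 37 and number 735 had rank 544 of 920. The same shift among the other listed peaks was not examined. The ratio at Gata2 ranged from 3.45 with windows of its own chromosome to 8.20 with the lower 50% of name numbers, that at Gata3 from 0.956 with the gene span plus 100 kb to 2.93 with the lower 50% of name numbers, and that at Gata4 reached 2.32 with windows of its own chromosome. Name numbers within 100 kb of Gata6 and Gata4 gave no value for want of peaks. Gene spans rounded to 10 kb, the use of 1 list without depth, and the lack of an mm9 annotation limit all distances and leave genomic features of the peaks not analysed here.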

Other observations

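Among the Gata3 peaks, the first and the third by position carried consecutive name numbers, 415 and 416, although the peak between them carried 102. Over the whole list, 288 of 12097 pairs of peaks that are 2 places apart by position carried consecutive numbers in ascending order (2.38%). For direct neighbours it was 367 of 12117 pairs (3.03%).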
